A study of Mus musculus with 24 samples.

Results

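The cytosolic ribosome is built from ribosomal RNA and a fixed set of small proteins, and the mRNAs of those proteins were followed here in the CA1 subfield of the mouse hippocampus. Members were the protein-coding genes whose symbol begins with Rpl or Rps and a digit, together with Rplp0, Rplp1, Rplp2 and Rpsa, without symbols ending in -ps and without the Rps6k kinases, as listed in the 4 comparison tables that the authors deposited. This gave 85 genes of the 16355 in those tables and of the 38355 in the count tables. All 85 passed the filter on low counts and had reads in every library.

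The mice were C57BL/6J, 3 to 5 months old, and all 24 carried Kat2a alleles flanked by loxP sites (Kat2a fl/fl). Kat2a encodes a lysine acetyltransferase that acts on histones as part of larger complexes. There were 7 libraries of conditional knockout mice (cKO, Kat2a fl/fl with CamKII_alpha-cre+) exposed to an unfamiliar environment for 15 min (novelty), 6 of naive cKO mice, 5 of control mice after the same exposure and 6 of naive control mice. The CamKII alpha promoter drives Cre in excitatory forebrain neurons, so other cells of the dissected tissue keep the gene. Kat2a itself averaged 35.1 ± 2.26 CPM (counts scaled to a common library size) in cKO novelty libraries (SD, n = 7), 36.2 ± 2.42 in cKO naive libraries (n = 6), 60.2 ± 3.57 in control novelty libraries (n = 5) and 63.6 ± 3.98 in control naive libraries (n = 6). The cKO libraries ranged from 31.2 to 39.3 CPM and the control libraries from 56.0 to 70.3 CPM, with no overlap, and the log2 fold change of cKO over control averaged over exposures was -0.795 (SE 0.04, adjusted p = 9.08e-14 in edgeR's quasi-likelihood test). The labels do not say that the libraries come from separate mice, so p-values measure the spread between these libraries.

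Proteins named Rps sit in the small subunit, which holds and reads the mRNA, and those named Rpl in the large subunit, which joins amino acids. Rplp0, Rplp1 and Rplp2 form the stalk that recruits translation factors. The mRNAs of most ribosomal proteins start with a run of pyrimidines, the terminal oligopyrimidine (TOP) sequence, through which mTOR signalling and Larp1 control their translation. Their genes also left many processed copies across mammalian genomes, most of them pseudogenes, and a short read from such an mRNA often fits more than one place.

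RefSeq lists a promoter for 62 of the 85 genes, 73 promoters in all (GRCm38.p6). The 60 bases around the listed start, 40 before it and 20 from it on, are shown for Rpl15, Rps15a, Rpl4 and Rpl23, 4 of the genes described below. Capitals mark matches to any of 3 pyrimidine-rich words that were searched for on the gene's strand, which are CTTTCC, the word TCTTT and the word CTTCC.
Rpl15, chr14:18270967-18271026, minus strand: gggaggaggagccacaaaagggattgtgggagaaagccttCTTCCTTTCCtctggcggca
Rps15a, chr7:118116128-118116187, minus strand: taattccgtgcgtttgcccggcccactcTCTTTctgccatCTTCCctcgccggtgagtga
Rpl4, chr9:64173347-64173406, plus strand: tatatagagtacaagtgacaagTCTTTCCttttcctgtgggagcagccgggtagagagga
Rpl23, chr11:97782420-97782479, minus strand: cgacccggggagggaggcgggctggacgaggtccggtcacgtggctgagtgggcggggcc

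Within 50 bases on either side of the start, on the gene's strand, CTTTCC was present in 30.1% of the 73 member promoters and in 4.7% of all 32817 promoters in the table. TCTTT was present in 37.0% of member promoters against 11.8% of all, and CTTCC, which can overlap CTTTCC, in 45.2% against 19.5%. On either strand of the 300 bases held in the table, CGGAAG, the core of ETS factor sites, was present in 63.0% of member promoters against 16.9% of all. GGGCGG, the core of Sp1 sites, was present in 63.0% against 35.6%, and the YY1 word AAGATGGC in 8 of the 73 against 2.7% of all. TATAAA in the 50 bases before the start was found in 1.4% of member promoters and 2.6% of all. These matches describe the letters in the windows and say nothing of binding.

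The count tables were made from reads that mapped to a single place, per the entry for non-unique alignments that they carry. A read that fitted a member and a copy equally well was thus not counted for either. How much this changed each member's level was not tested. A gene with a close copy is Rps3a1, a small subunit gene at chr3:86137940-86142702, set here beside Rps3a3, a row on chr13 at 108670580 to 108671440 that GENCODE M21 classes as a pseudogene. Their coding sequences (GENCODE M21, GRCm38) differ at 9 of 795 aligned bases and share runs of up to 215 bases. A stretch of 90 bases with 2 of the differences is shown, with the differing bases in capitals. Counted from 1 at the first coding base of Rps3a1, they are T216C and T260C, with the base of Rps3a1 first.
Rps3a1, chr3, coding bases 171 to 260: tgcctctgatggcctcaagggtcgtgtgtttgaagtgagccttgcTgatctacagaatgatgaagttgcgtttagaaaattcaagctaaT
Rps3a3, chr13, aligned bases: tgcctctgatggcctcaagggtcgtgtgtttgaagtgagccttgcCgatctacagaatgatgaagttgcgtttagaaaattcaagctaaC

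The libraries held 10.7 to 35.8 M reads assigned to genes (M, mega; median 19.0 M), and no pair held identical counts. The reads with no unique place made up a further 14.8 to 15.7% of reads in cKO novelty libraries, 15.0 to 16.2% in cKO naive libraries, 15.5 to 17.2% in control novelty libraries and 15.8 to 17.97% in control naive libraries. Control naive library 2 was the shallowest of the 24.

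Averaged over the 24 libraries, the members' levels ran from 0.976 to 529.9 CPM, with a median of 30.7 CPM. There were 21 members under 10 CPM and 20 at 100 CPM or more, and the member with fewest reads averaged 19.0 reads a library. Per kilobase of coding length, which 81 members could be given, the highest levels were 2370 CPM for Rpl41, the gene of the smallest ribosomal protein, 682 for Rplp1, 501 for Rps15, 489 for Rps21 and 456 for Rpl13a. The lowest were 2.15 CPM per kilobase for Rps13, 3.55 for Rpl23a, 4.43 for Rpl17, 4.94 for Rps6, whose protein is the classic target of the S6 kinases, and 5.55 for Rps23. In all of these 5 low genes, every 50-base window of the coding sequence also occurs in another annotated gene or pseudogene. These values are levels of uniquely placed reads and not of mRNA. The counts are per gene and not per coding part, so a short coding part raises the value. Rpl41 has 75 coding bases in a transcript of 582 bases, and Rplp1 342 in one of 499, so the order depends on this choice of length.

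When 672 pseudogene rows that share a 50-base window with a member were added to the member's count, the level of the median member became 1.57 times as high. It at least doubled for 34 of 83 members. Rps29 had 2.01 CPM alone and 162.3 CPM with its copies, Rps6 had 3.69 CPM alone and 92.9 CPM with them, and Rps16 had 4.79 CPM alone and 106.8 CPM with them. Some deposited rows also hold something other than 1 ribosomal protein gene. The row named Rpl24 spans chr16:55966275-56008913 and so covers both Rpl24 and its neighbour Zbtb11. In GENCODE M21 the gene identifier of this row is that of Zbtb11, and Rpl24 is a separate gene at 55966275 to 55971435. Rps19bp1 encodes a binding partner of Rps19, and Rps3a2, Rps3a3 and Rps4y2 are pseudogenes in GENCODE M21. These 5 rows were kept, and counts without them are given below. The Rpl13a row, at chr7:45125558-45136231, also covers Gm45713, a protein-coding gene on the same strand, and was not set apart with the 5. In GENCODE M21, 17 members share exon bases with another protein-coding gene, the Rpl24 row, Rpl13a, Rpl15 and Rpl32 among them. Reads on such shared bases may have been counted as ambiguous, and so for neither gene.

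The members' summed share of assigned reads was lower in cKO than in control libraries, but the groups overlapped. It had a lowest, median and highest value of 0.453, 0.516 and 0.571% in cKO novelty libraries, 0.467, 0.544 and 0.574% in cKO naive libraries, 0.524, 0.581 and 0.591% in control novelty libraries and 0.470, 0.588 and 0.626% in control naive libraries. With copies added, the medians were 0.789% in cKO novelty, 0.843% in cKO naive, 0.918% in control novelty and 0.939% in control naive libraries. In libraries numbered 1 to 3 the median share was 0.520%, and in those numbered 4 and above 0.566%, so the share also moved with the library number. No p-value is attached to the sum, since the genes in it were chosen as a set.

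**Figure D1:**
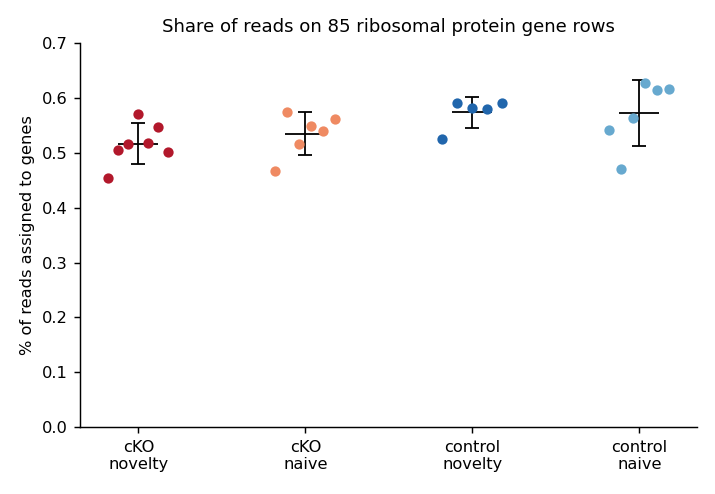
Share of reads assigned to genes that fell on the 85 ribosomal protein gene rows, in percent, with 1 point per library and the mean ± SD of each group. The control novelty libraries lie between 0.524 and 0.591% and the cKO novelty libraries between 0.453 and 0.571%.

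The comparison of genotypes asks what changes in CA1 when excitatory neurons lose Kat2a. Averaged over both exposures, 33 of the 85 ribosomal protein genes fell in cKO libraries and none rose (edgeR's quasi-likelihood test, adjusted p below 0.05 over 16744 genes). Across all genes tested, 6.32% were called lower and 5.72% higher in this comparison, against 38.8% of the members called lower. The members' median log2 fold change, cKO over control, was -0.17, whereas the median of all genes was 0.01 and the middle 50% of all genes lay between -0.07 and 0.09. A negative value was found for 75 of the 85. The called members ranged from -0.48 (Rpl17) to -0.11 (Rpl27a). In bulk tissue, fewer cells that express these genes and less of their mRNA per cell cannot be told apart.

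**Figure D2:**
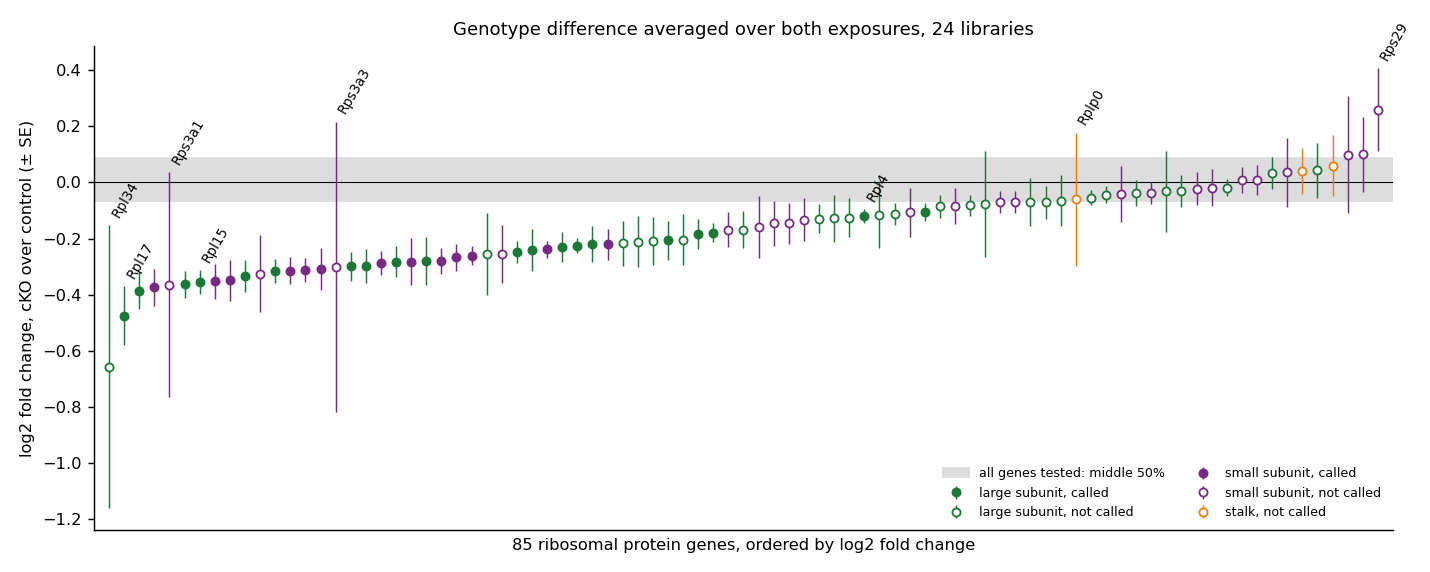
Log2 fold change of each of the 85 genes, cKO over control averaged over both exposures, with its SE, ordered by size and coloured by ribosomal subunit, with 8 genes of the text labelled. Filled points passed adjusted p of 0.05, and all 33 of them lie below 0. The grey band holds the middle 50% of all genes tested.

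Rpl15, a large subunit protein required for processing of ribosomal RNA precursors (chr14:18267823-18271391), had a lowest, median and highest level of 46.3, 52.4 and 55.1 CPM in cKO novelty libraries and 47.8, 51.0 and 53.4 CPM in cKO naive libraries. In control novelty libraries it had 60.7, 65.0 and 66.8 CPM, and in control naive libraries 59.8, 63.4 and 80.8 CPM. Every one of the 13 cKO libraries was below every one of the 11 control libraries. On the log2 scale Rpl15 differed by -0.355 (SE 0.04, adjusted p = 4.46e-06 in edgeR).

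Rpl7, a large subunit protein (chr1:16101295-16104662), had 136.7, 142.2 and 152.9 CPM in cKO novelty libraries, 138.9, 146.8 and 155.4 CPM in cKO naive libraries, 160.5, 171.9 and 178.7 CPM in control novelty libraries and 160.7, 174.2 and 180.4 CPM in control naive libraries. The genotypes again did not overlap. On the log2 scale Rpl7 differed by -0.225 (SE 0.03, adjusted p = 8.15e-06 in edgeR). Rpl23, whose free protein can bind and inhibit Mdm2 (chr11:97777527-97782437), had 20.5, 26.9 and 29.5 CPM in cKO novelty libraries, 25.2, 27.7 and 29.1 CPM in cKO naive libraries, 30.9, 34.3 and 35.6 CPM in control novelty libraries and 31.7, 35.8 and 37.4 CPM in control naive libraries. Its genotypes did not overlap either, and it differed by -0.36 on the log2 scale (SE 0.05, adjusted p = 1.71e-05 in edgeR). These 3 were the only members with no overlap between all cKO and all control libraries in that direction, and none had it in the other, while 0.221% of all genes were lower and 0.0956% higher without overlap.

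In the small subunit, Rps15a (chr7:118104378-118116186) had 93.3, 104.2 and 114.9 CPM in cKO novelty libraries, 97.2, 105.7 and 110.3 CPM in cKO naive libraries, 108.8, 125.3 and 129.7 CPM in control novelty libraries and 120.8, 126.0 and 130.6 CPM in control naive libraries. Within the naive mice its genotypes did not overlap, within the novelty groups they did, and it differed by -0.26 on the log2 scale (SE 0.03, adjusted p = 1.05e-05 in edgeR). Rps4x, encoded on the X chromosome (chrX:102184941-102189394), had 101.9, 109.5 and 116.1 CPM in cKO novelty libraries, 100.5, 110.0 and 120.5 CPM in cKO naive libraries, 118.2, 130.1 and 135.6 CPM in control novelty libraries and 124.8, 133.3 and 136.8 CPM in control naive libraries. Within each exposure the genotypes did not overlap, and it differed by -0.24 on the log2 scale (SE 0.03, adjusted p = 1.24e-05 in edgeR). Rps2, which lines the channel where mRNA enters the small subunit (chr17:24718116-24721929), had 54.3, 54.9 and 60.8 CPM in cKO novelty libraries, 51.0, 58.1 and 61.9 CPM in cKO naive libraries, 65.3, 69.6 and 74.0 CPM in control novelty libraries and 58.6, 72.8 and 78.7 CPM in control naive libraries. Within the novelty groups its genotypes did not overlap, within the naive mice they did, and it differed by -0.31 on the log2 scale (SE 0.04, adjusted p = 1.48e-05 in edgeR).

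**Figure D3:**
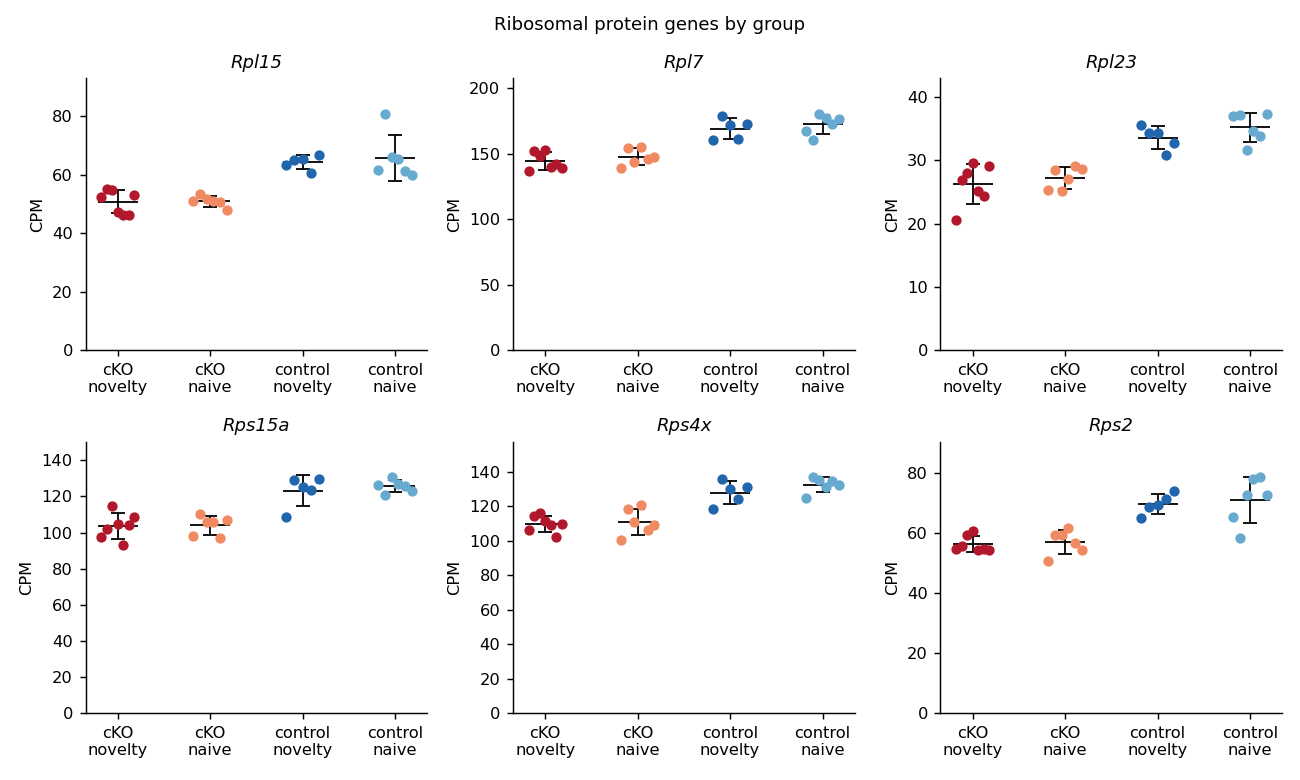
CPM of 6 ribosomal protein genes with 1 point per library, and the mean ± SD of each group. For Rpl15, Rpl7 and Rpl23 all cKO libraries lie below all control libraries.

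Rpl26, Rps3, Rpl6 and Rps24 were also among the 12 called members with the smallest p-values. Rpl26, which lies close to the exit of the nascent chain tunnel, averaged 74.9 ± 6.08 CPM in cKO (SD, n = 13) and 93.3 ± 6.44 CPM in control libraries (n = 11). Rps3, which also lines the mRNA entry channel, averaged 238.9 ± 20.97 CPM in cKO and 296.9 ± 26.2 CPM in control libraries, a log2 fold change of -0.31. Rpl6, a large subunit protein, averaged 52.8 ± 4.10 CPM in cKO and 62.7 ± 3.88 CPM in control libraries. Rps24, a small subunit protein whose human gene is mutated in Diamond-Blackfan anaemia, fell by 0.29 on the log2 scale. The edgeR adjusted p-values of these 4 lay between 2.17e-05 (Rpl26) and 0.000132 (Rps3).

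By position in the ribosome, 20 of 46 large subunit genes fell (median log2 fold change -0.18) and 13 of 36 small subunit genes (median -0.16). None of the 3 stalk genes passed the test, with log2 fold changes of -0.06 for Rplp0, 0.06 for Rplp1 and 0.04 for Rplp2, although the Rplp0 row jumped between libraries, as described below. Without the 5 rows set apart above, 32 of 80 members fell. Of the 5 members with fewer than 25% of their coding windows in other genes, Rpl4, Rpl8 and Rps3 fell. Rpl4, the member with the most reads, had 477.1, 489.0 and 519.8 CPM in cKO novelty libraries, 502.1, 528.7 and 546.3 CPM in cKO naive libraries, 546.3, 557.1 and 579.4 CPM in control novelty libraries and 501.1, 552.1 and 567.3 CPM in control naive libraries (log2 fold change -0.12, SE 0.02, edgeR adjusted p = 0.0014). Of 13 members with 25 to 75% of windows shared, 3 fell (median -0.06), and of 62 with more, 26 fell (median -0.19).

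Several ribosomal proteins have a paralogue with a second gene among the members. Rpl22l1 fell (-0.19, edgeR adjusted p = 0.0248), with 26.7 ± 2.86 CPM in cKO and 30.4 ± 2.19 CPM in control libraries, and Rpl22 did not pass (-0.04, adjusted p = 0.422). Rpl36a fell (-0.23, edgeR adjusted p = 0.00618), and its paralogue Rpl36al did not pass (-0.08, adjusted p = 0.174). Rpl7 fell, as above, and Rpl7l1 did not pass (-0.06, adjusted p = 0.196). Neither Rps27 (-0.25) nor Rps27l (-0.08) passed. Rpl10, Rpl39 and Rpl3, which have no paralogue among the members, did not pass either. Rpl26, which has none among them, fell, as above. So did Rps4x, beside which the members hold the pseudogene row Rps4y2. The differences between paralogues were not themselves tested.

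With the promoter words in view, 16 of 29 members with CTTCC near the start fell (median log2 fold change -0.23), against 9 of 33 without it (median -0.12). For CTTTCC these were 8 of 19 (median -0.21) against 17 of 43 (median -0.17), and for CGGAAG in the 300 bases 20 of 43 (median -0.22) against 5 of 19 (median -0.13). For TCTTT they were 11 of 24 (median -0.174) against 14 of 38 (median -0.165). Members with GGGCGG or with the YY1 word fell in a smaller share than those without, with 15 of 40 (median -0.17) against 10 of 22 (median -0.19) for GGGCGG and 1 of 6 (median -0.14) against 24 of 56 (median -0.17) for AAGATGGC, while TATAAA was held by 1 gene, which fell. These are counts with no test, the words overlap, and each member also differs in level and in its copies.

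The genotype difference could be looked at in separate libraries, since the comparison after novelty and the comparison in naive mice share none. After novelty 25 members fell and none rose, with 2.4% of 16188 genes called lower and 2.13% higher, and the members' median was -0.18 against 0.01 for all genes. In naive mice 5 fell and none rose, with 0.495% of 16360 genes called lower and 0.306% higher, and the median was -0.14 against 0.00. The 5 in naive mice were Rps15a, Rpl23, Rpl15, Rps4x and Rpl7, and all 5 also fell after novelty. All 25 members called after novelty had negative values in naive mice, with a median of -0.34 after novelty and -0.24 in naive mice, and 62 of the 85 were negative in both.

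Among the members with the smallest p-values after novelty, Rps2 had -0.31 after novelty (SE 0.04, edgeR adjusted p = 0.0011) and -0.32 in naive mice (SE 0.07, adjusted p = 0.0513). Rpl26 had -0.36 after novelty (SE 0.05, edgeR adjusted p = 0.00144) and -0.27 in naive mice (SE 0.07, adjusted p = 0.0721). Rpl32, a large subunit protein, had 113.8, 127.7 and 130.8 CPM in cKO novelty libraries, against 138.9, 166.4 and 167.2 CPM in control novelty libraries, with no overlap. Its value after novelty was -0.36 (SE 0.05, edgeR adjusted p = 0.00137) and in naive mice -0.23 (SE 0.08, adjusted p = 0.214). After novelty 20 members were lower without overlap and none was higher, against 1.7% and 1.39% of all genes. In naive mice 6 were lower without overlap and none was higher, against 1.08% and 0.788% of all genes.

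**Figure D4:**
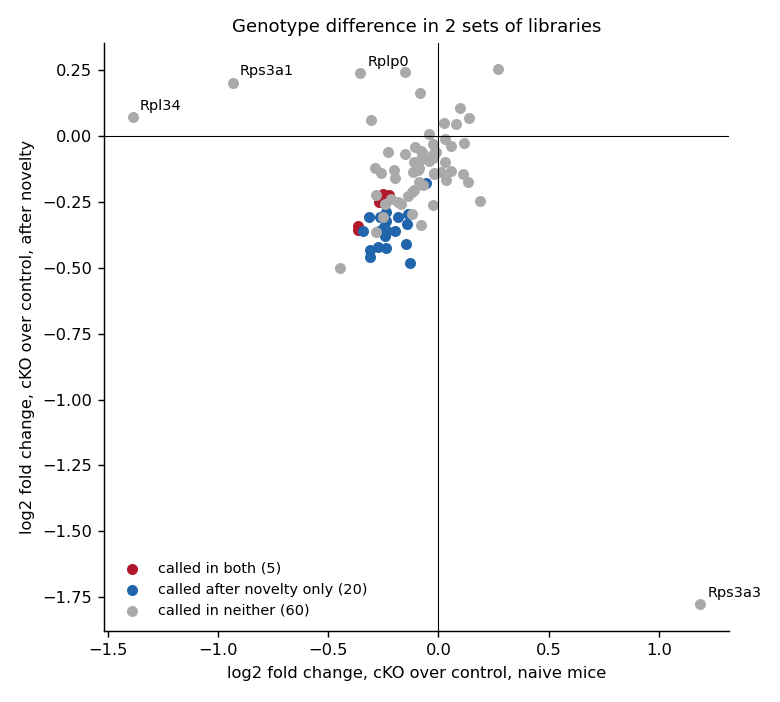
Log2 fold change, cKO over control, of each of the 85 genes in naive mice (horizontal axis) and after novelty (vertical axis), 2 comparisons that share no library. Of the 85 genes, 62 lie below 0 on both axes, and the 4 labelled genes have levels that jump between libraries.

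The difference between the 2 genotype effects was tested directly. No member and no other gene passed the interaction test, among 16744 genes tested in edgeR and in limma-voom and 27575 in DESeq2. At unadjusted p below 0.05 edgeR had 5 members and 688 genes. So 25 members called after novelty and 5 in naive mice do not show that the genotype effect differs between exposures. In the authors' deposited table of the naive comparison 10 members were called lower, against 1.91% of genes, and in that of the comparison after novelty 31 were, against 4.61% of genes, with none higher in either.

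Within libraries numbered 1 to 3, 10 members were called lower in the average, against 1.4% of 16684 genes, and within those numbered 4 and above 26 were, against 1.5% of 16964 genes. All 33 members called with 24 libraries had negative values in both parts, but they were chosen from these same libraries, so this is no separate repeat. Of all 85 members, 75 were negative in libraries numbered 1 to 3 and 72 in those numbered 4 and above. Over all genes tested, 51.2% and 51.6% were positive in these 2 parts. Without control naive library 2, the shallowest, 37 members fell in the average, against 5.85% of all genes, and 9 in naive mice, against 0.466%. Naive calls numbered 3 without control naive library 5, with 36 genes called lower in all, and 3 without control naive library 6, with 26. Called in every fit that left out 1 library were 26 of the 33 members in the average, 20 of the 25 after novelty and 3 of the 5 in naive mice (Rps15a, Rpl15 and Rpl23).

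The largest spread within groups was found for Rps3a3, Rpl34, Rps3a1, Rps16 and Rplp0. The Rps3a1 row had 43.0 to 89.0 CPM in cKO novelty libraries, 1.10 to 87.9 CPM in cKO naive libraries, 1.71 to 114.2 CPM in control novelty libraries and 56.6 to 107.1 CPM in control naive libraries. The values stood at 3 levels. In 15 libraries they lay between 71.6 and 114.2 CPM while Rps3a3 had 5.26 to 12.5 CPM, in 7 between 39.3 and 56.6 CPM while Rps3a3 had 42.2 to 62.0 CPM, and in 2 at 1.10 and 1.71 CPM while Rps3a3 had 94.6 and 107.1 CPM. The lowest 2 were cKO naive library 2 and control novelty library 5, and each level held libraries of both genotypes.

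Added together, the rows of Rps3a1 and Rps3a3 had 79.3 to 98.3 CPM in cKO libraries (mean 90.3 ± 6.22, SD, n = 13) and 105.9 to 124.6 CPM in control libraries (mean 113.1 ± 5.71, n = 11), with no overlap. The 2 rows were picked after their spread was seen, and 0.221% of all single genes were lower without overlap. The row of Rps3a1 alone had a log2 fold change of -0.37 with an SE of 0.40 (edgeR adjusted p = 0.615). With its copies summed, a setting added after these levels were seen, Rps3a1 fell by 0.33 on the log2 scale in the average (SE 0.04, edgeR adjusted p = 1.26e-06), by 0.35 after novelty (adjusted p = 0.001) and in naive mice by 0.30 (adjusted p = 0.0141). That setting adds every pseudogene row given to Rps3a1 and not Rps3a3 alone, with a mean of 133.2 CPM over all libraries, so it does not test the 2-row sum. All mice were labelled C57BL/6J, and what sets the 3 levels was not tested.

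**Figure D5:**
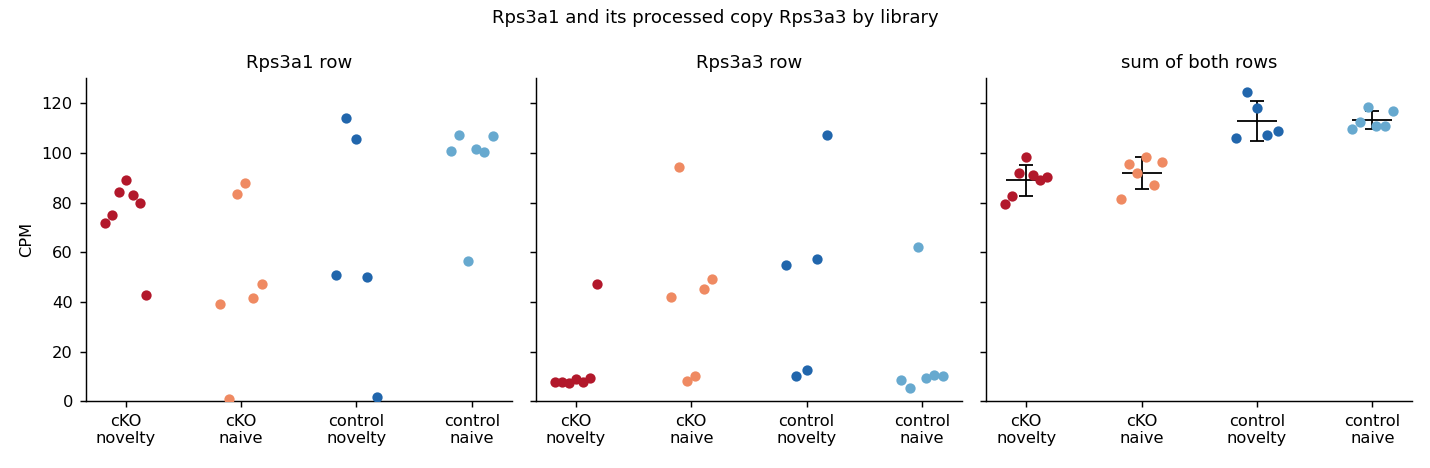
CPM of the Rps3a1 row, of the Rps3a3 row and of their sum, with 1 point per library, and the mean ± SD for the sum. Libraries low for Rps3a1 are high for Rps3a3, and in the sum all 13 cKO libraries lie below all 11 control libraries.

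Rpl34, a large subunit gene on chromosome 3, also stood at separate levels. In 6 libraries it had 1.18 to 2.32 CPM and in the other 18 from 13.9 to 36.9 CPM, and 5 of those 6 libraries were also among the 6 in which Rplp0, on chromosome 5, was lowest (52.4 to 57.4 CPM, with 95.4 to 168.0 CPM in the others). Its copy Rpl34-ps1 had 30.1 to 43.4 CPM in its 6 low libraries and 20.1 to 30.7 CPM in the others, and Gm8730, a copy of Rplp0, had 49.3 to 62.2 CPM in its 6 and at most 42.9 CPM in the others. The 6 low Rpl34 libraries were cKO novelty library 7, cKO naive libraries 1 and 2, control novelty libraries 4 and 5 and control naive library 3. With copies summed, Rpl34 fell in the average (-0.36, SE 0.09, edgeR adjusted p = 0.00751), whereas the Rpl34 row alone had -0.66 (SE 0.51, adjusted p = 0.442). Rplp0 with copies summed had 0.02 (SE 0.06, adjusted p = 0.886).

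With copies summed for every member, 38 of 83 members fell in the average, 32 after novelty and 12 in naive mice, and none rose. Over all genes of these fits 987 of 16582 were called lower in the average, 367 of 16038 after novelty and 82 of 16207 in naive mice. Of the 33 members called from their own rows in the average, 30 were also called with copies summed. Rps6 fell with copies summed (-0.24, SE 0.03, edgeR adjusted p = 1.65e-05), against -0.15 for the row alone (adjusted p = 0.249). Rps29 and Rps16 passed in neither form.

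The comparison of exposures asks what 15 min in an unfamiliar environment does to the same genes. Averaged over genotypes 1 member, the row named Rpl24, rose and none fell, while 4.43% of 16744 genes were called higher and 2.13% lower, and the members' median log2 fold change, novelty over naive, was -0.03 against -0.01 for all genes. The Rpl24 row had a lowest, median and highest level of 82.8, 85.6 and 88.7 CPM in cKO novelty libraries, against 67.4, 69.5 and 74.1 CPM in cKO naive libraries, with no overlap. In control mice it had 83.7, 91.8, 84.1, 80.1 and 85.4 CPM in the 5 novelty libraries, against 68.8, 69.8 and 85.01 CPM (lowest, median and highest) in naive libraries, where library 2 alone reached the novelty range. Since the row also covers Zbtb11, which encodes a zinc finger protein, the reads of the ribosomal gene cannot be told apart from those of its neighbour.

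In cKO mice the Rpl24 row was the only member to rise after novelty (1.92% of 16339 genes were called higher and 0.484% lower), and the members' median was -0.06 against -0.01 for all genes. In control mice no member passed with edgeR, 1 had an unadjusted p below 0.05, DESeq2 called 1, while 1.02% of 16100 genes were called higher and 0.199% lower. The value of the Rpl24 row in control mice was 0.23 (SE 0.06, edgeR adjusted p = 0.0766), and 0.28 without control naive library 2 (adjusted p = 0.00239). The interaction of the Rpl24 row did not pass. In cKO mice the row did not pass within either part of the library numbers, with 0.29 in libraries numbered 1 to 3 (edgeR adjusted p = 0.109) and 0.28 in those numbered 4 and above (adjusted p = 0.053).

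Rps12, a small subunit protein, had 3.52, 4.11 and 4.36 CPM in cKO novelty libraries, against 4.49, 5.14 and 5.36 CPM in cKO naive libraries, and these groups did not overlap. It was the only member lower without overlap, which 0.484% of all genes were, and the Rpl24 row the only one higher, which 1.45% were. Its log2 fold change was -0.31 (edgeR adjusted p = 0.0697), and -0.31 with adjusted p = 0.0258 in the fit over all 24 libraries. In control mice Rps12 had 3.85 to 4.96 CPM in novelty libraries and 4.02 to 4.90 CPM in naive libraries, with a log2 fold change near 0. Rpl10 had 0.26 in cKO mice (adjusted p = 0.207) and -0.11 in control mice, and neither passed, nor did Rpl4, Rpl7l1, Rps19bp1 or the Rps3a3 row in any novelty comparison.

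Other genes of translation were read from lists chosen by name. Gnb2l1, also called Rack1, a scaffold protein on the small subunit, averaged 162.8 ± 6.01 CPM in cKO novelty libraries (SD, n = 7), 168.1 ± 4.71 CPM in cKO naive libraries (n = 6), 193.4 ± 4.87 CPM in control novelty libraries (n = 5) and 194.8 ± 10.02 CPM in control naive libraries (n = 6). It fell in cKO (-0.23, SE 0.03, edgeR adjusted p = 1.58e-06), while Fau, whose product is a ribosomal protein fused to a ubiquitin-like one, did not pass (-0.10, adjusted p = 0.548). Of 16 other mRNAs known to carry a TOP sequence, 10 fell in the average over exposures and none rose, with a median of -0.11, while 6.32% of all genes were called lower and 5.72% higher. Examples were Eef1g, a subunit of the elongation factor 1 complex (-0.27, edgeR adjusted p = 1.05e-05), Eef2, which moves the ribosome along (-0.20, adjusted p = 0.00211), Eef1a1, which brings tRNA (-0.11, adjusted p = 0.00101), and Gas5, a host of small nucleolar RNAs (-0.26, adjusted p = 0.00648).

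Genes that act on ribosomal protein mRNA or build ribosomes had medians near that of all genes. In the average over exposures 6.32% of all genes were called lower and 5.72% higher. Of 11 regulators in the mTOR pathway and of the Larp proteins, 1 rose and 1 fell, with a median of 0.01. Tsc2, an inhibitor of mTOR complex 1, rose (0.11, edgeR adjusted p = 0.00966), and Rheb, an activator of that complex, fell (-0.09, adjusted p = 0.0341). The others, Mtor, Rptor, Tsc1, Larp1 and Rps6kb1 among them, did not pass, and mTOR activity was not tested. Of 31 assembly factors and RNA polymerase I genes, Polr1a, the largest subunit of that polymerase, rose (0.26, edgeR adjusted p = 1.11e-06), as did Polr1b (0.15, adjusted p = 0.0423), and Myc fell (-0.25, adjusted p = 0.0442), with a median of 0.01. None of 77 mitochondrial ribosomal protein genes passed in the average (median 0.01), and 3 of 81 nuclear respiratory chain genes fell (median -0.03).

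Markers of cell types in the dissection moved as well, and their counts stand beside the same 6.32% of all genes called lower and 5.72% called higher. In the average over exposures 2 of 6 markers of CA1 pyramidal neurons fell, Man1a and Camk2a, and the summed level of the 6 ran from 3690 to 4430 CPM in cKO novelty libraries, from 3480 to 4720 CPM in cKO naive libraries, from 4270 to 5750 CPM in control novelty libraries and from 4240 to 4800 CPM in control naive libraries. Of 6 oligodendrocyte markers 4 fell, Cnp, Mobp and Mog among them, with summed levels of 3080 to 5940 CPM in cKO novelty libraries, 4020 to 5120 CPM in cKO naive libraries, 4480 to 5450 CPM in control novelty libraries and 4830 to 5080 CPM in control naive libraries. The medians of the summed oligodendrocyte levels, in the same order of groups, were 3780, 4120, 5220 and 4980 CPM. For the summed CA1 pyramidal markers they were 4080, 4080, 4940 and 4730 CPM. Interneuron markers fell in 3 of 6 (Pvalb, Gad1 and Gad2), dentate granule neuron markers in 1 of 5 (C1ql2) and vessel markers in 1 of 5 (Rgs5). None of the astrocyte, microglia, CA3, precursor, choroid plexus and blood markers tested passed. The median log2 fold change was -0.21 for CA1 pyramidal, -0.27 for oligodendrocyte and -0.12 for interneuron markers, with all 6 negative in each list. It was -0.21 for dentate granule neuron and -0.14 for vessel markers, with 4 of 5 negative in each. Astrocyte markers had -0.04 (5 of 6 negative), microglia markers 0.05 (1 of 6) and CA3 markers 0.20 (1 of 3). The part of these shifts in the ribosomal protein values was not tested.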

How the data were processed

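RNA was extracted from dissected CA1 with TRI reagent, and poly(A) RNA was made into TruSeq v2 libraries, a kit that does not mark strand, so antisense reads cannot be told apart. The submitters' processing notes name STAR 2.3.0, HTSeq, DESeq2 and GRCm38.p2, without roles. The deposited counts are whole reads per gene, with 5 summary entries per library that were left out of library sizes (reads with no feature, 7.58 to 10.4% of reads, ambiguous reads, 1.06 to 1.18%, and non-unique alignments). The authors' deposited comparison tables give normalised mean signal, log2 fold changes, p-values and, as a score, the SE of each fold change, per the file headers.

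Counts were scaled by TMM, filtered by filterByExpr (minimum count 10) and tested on all genes with edgeR 4.0.16 (robust quasi-likelihood fit, Benjamini-Hochberg over all genes, called at adjusted p below 0.05) in R 4.3.3. Pairwise comparisons used their own groups, and averages and the interaction used all 24 libraries. CPM are counts over TMM-scaled library sizes. The scripts were tested on simulated data. Alternatives were DESeq2 1.42.0, limma 3.58.1 (voom), upper-quartile scaling, TMM without the members, no filter, library number as a term or block, each library left out, and, added after seeing the data, summed copies, each part of the library numbers, and removal of 5 rows. Named were called members (the 12 smallest p in full), the 4 smallest p per comparison, the 5 highest and lowest levels per coding length, paralogues and the 5 largest spreads. Some genes that this rule names are not reported here. Members and lists were chosen with earlier results of these data known. Counting error limits genes of few reads.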

Additional observations from a re-analysis of the deposited data

Results flagged for a closer look

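Within-group outliers were sought in 72 groups of library values by Dixon's test, which flags about 5% of groups by chance. In control naive library 2, the shallowest, Rpl15 had 80.8 CPM (59.8 to 65.9 in the other libraries of its group), the Rpl24 row 85.01 CPM (68.8 to 72.8) and Rpl6 54.1 CPM (62.0 to 66.3). Rps24 had 121.5 CPM in cKO novelty library 4 (96.5 to 104.6 in the others) and 90.3 CPM in cKO naive library 1 (104.1 to 111.1). Rps3a3 had 47.2 CPM in cKO novelty library 7 (7.60 to 9.35) and 62.0 CPM in control naive library 3 (5.26 to 10.5). In these same 2 libraries Rps3a1 stood at 43.0 CPM (71.6 to 89.0) and 56.6 CPM (100.4 to 107.1), and Rpl34 was at 1.71 CPM in control naive library 3 (25.9 to 36.2). The summed share of the members was 0.524% in control novelty library 1 and 0.580 to 0.591% in the other 4 of its group.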

How the results depend on the processing

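Members called lower in the average, after novelty and in naive mice numbered 33, 25 and 5. They were 35, 31 and 10 with DESeq2, 34, 26 and 5 with limma-voom, and 31, 25 and 5 with upper-quartile scaling. TMM without the members gave 33, 25 and 6, no filter 30, 25 and 7, and copies summed 38, 32 and 12. With the part of the library numbers (1 to 3, or 4 and above) as a term they were 39, 29 and 9. They were 10, 0 and 0 in libraries 1 to 3 and 26, 9 and 1 in libraries 4 and above, where fewer libraries are tested. The fit over all 24 gave 25 after novelty and 10 in naive mice. No setting called a member higher by genotype. With 1 library left out the counts were 27 to 37, 20 to 28 and 3 to 9, and medians lay between -0.18 and -0.14, -0.20 and -0.15, and -0.19 and -0.09. In libraries 1 to 3 the interaction median was -0.16. Novelty calls in the average were 3 in libraries 4 and above (Rpl24 higher, Rplp0 and Rpl41 lower) and 0 without the 5 rows. In cKO mice they were 2 in the fit over all 24 and 0 both in libraries 4 and above and without the 5 rows. Libraries 1 to 3 gave 1 in cKO mice, Rplp0 (higher, 0.956) and not Rpl24, with 15 of 16330 genes called. There cKO naive libraries 1 to 3 all stood at the low Rplp0 level. In control mice DESeq2, no filter, the fit over all 24 and copies summed each gave 1. Libraries 4 and above gave 4 in control mice, with 281 of 16223 genes called. Rpl24 was higher (0.261), and Rpl34 (-4.048), Rps4y2 (-0.598) and Rplp0 (-1.455) were lower. The novelty side of that fit held control novelty libraries 4 and 5 alone, both at the low level of Rpl34 and Rplp0. With copies summed, share medians were 0.789% (cKO novelty), 0.843% (cKO naive), 0.918% (control novelty) and 0.939% (control naive). Novelty in control mice was -0.071 for Rps3a3 in libraries 1 to 3 and -0.047 for Rps19bp1 in libraries 4 and above, both reversed. Over all genes DESeq2 called 1163 after novelty and 454 in naive mice, against 733 and 131 with edgeR, and for novelty 643 in cKO and 374 in control mice, against 393 and 196. Depth limits the 21 members under 10 CPM. The causes were not tested.

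Same-numbered libraries correlated between -0.13 and 0.28, so the numbers do not pair them. With the replicate block 27, 24 and 4 members were called lower, and over all genes 1337, 397 and 70, with 718, 207 and 98 for novelty (average, cKO, control).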
